A study of Mus musculus with 6 samples.

Results

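The tumor necrosis factor (TNF) superfamily was examined in obstructed mouse kidneys without and with Dkk3, the gene of a secreted dickkopf glycoprotein. Its members were taken by name: every gene of the differential expression table whose symbol begins with Tnfsf or Tnfrsf, together with Tnf, Lta, Ltb, Ltbr, Cd40, Cd40lg, Cd27, Cd70, Fas, Fasl and Ngfr, with 1 gene left out by the rule. This gave 41 of 18421 genes, of which 17 encode ligands and 24 receptors. The study compared renal tissue of 3 Dkk3 knockout mice (Dkk3-/-, background strain C57Bl/6) with that of 3 C57Bl/6 wild-type mice. All of it was taken 7 days after unilateral ureteral obstruction (UUO). This operation ties off a ureter and leads to tubular atrophy, leukocyte influx and fibrosis. The age of the mice, and whether the wild-type mice were littermates of the knockout, are not given in the labels, so a difference of colony cannot be told apart from the loss of Dkk3. Unobstructed kidneys were not analysed here.

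TNF superfamily ligands are mostly trimeric proteins on the cell surface or cut from it, and each binds 1 or a few receptors. Receptors with a cytoplasmic death domain, such as those encoded by Fas and Tnfrsf1a, can start apoptosis or necroptosis, while most others recruit TRAF adaptors and activate the canonical or the non-canonical NF-kB pathway. Lymphocytes use many pairs as costimulatory signals, B cells depend on others for survival, and lymphotoxin organises lymphoid tissue. In the injured kidney, TNF and its receptors and the TWEAK receptor Fn14 (Tnfrsf12a) are known from tubular and endothelial cells as well as from leukocytes.

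The values used were those of the authors' own edgeR test, which gives for each gene a log2 fold change, the average level over the 6 libraries in CPM (read counts scaled to a common library size), the score of a likelihood-ratio test and a p-value adjusted over all 18421 genes. No value per mouse was at hand, so the depth of each library, the spread between mice and any overlap of the genotypes are unknown. A positive log2 fold change is read as higher in the knockout, because Dkk3 itself stood at -4.43 (adjusted p = 2.98e-67) in the authors' deposited table. As a check of the tissue, the 8 proximal tubule markers averaged between 119 and 13646 CPM in the authors' deposited table. The p-values rest on these 3 and 3 mice, and the spread that edgeR assigned to each gene cannot be checked without values per mouse.

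Of the 41 members 1 passed an adjusted p of 0.05, Ltb, and its promoter is shown with those of Tnf and Lta because the 3 genes lie side by side within the major histocompatibility region of chromosome 17. The sequences are RefSeq's for GRCm38.p6, 5′ to 3′, and end just before the first annotated exon, in GENCODE vM21 or in RefSeq. Capitals mark matches to the NF-kB consensus (Ltb) or to the TATA box, TATAAA (Tnf and Lta), searched on both strands, and no match to one overlaps a match to the other in these windows.
Ltb promoter, chr17:35194257-35194438, plus strand: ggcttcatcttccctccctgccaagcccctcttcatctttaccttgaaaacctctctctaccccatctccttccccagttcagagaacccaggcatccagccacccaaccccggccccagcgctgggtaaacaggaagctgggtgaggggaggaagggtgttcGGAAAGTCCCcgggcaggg
Tnf promoter, chr17:35202008-35202257, minus strand: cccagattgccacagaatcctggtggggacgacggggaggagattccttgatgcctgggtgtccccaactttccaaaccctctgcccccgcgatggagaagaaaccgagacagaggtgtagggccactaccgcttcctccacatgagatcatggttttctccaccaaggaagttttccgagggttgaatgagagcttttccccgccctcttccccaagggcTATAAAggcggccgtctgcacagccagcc
Lta promoter, chr17:35205352-35205601, minus strand: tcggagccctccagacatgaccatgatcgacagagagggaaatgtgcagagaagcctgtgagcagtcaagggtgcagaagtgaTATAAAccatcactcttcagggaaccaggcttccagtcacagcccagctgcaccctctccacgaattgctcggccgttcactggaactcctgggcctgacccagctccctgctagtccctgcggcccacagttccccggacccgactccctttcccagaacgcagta
In the 250 bases before the RefSeq start, the Ltb match to the NF-kB consensus lay 87 to 78 bases before it, on the opposite strand. The TATA box match lay 29 to 24 bases before the start of Tnf and 167 to 162 bases before that of Lta. An NF-kB consensus match was found in 4 of the 31 members with a promoter in the RefSeq table (12.9%: Ltb, Tnfrsf8, Tnfrsf9 and Tnfrsf25), against 8.23% of all 27025 genes in it. A TATA box match was found in 5 of the 31 members (16.1%) and in 14.3% of all genes. Such matches describe the letters and show no binding.

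Most of the family stood above 0 in the knockout kidneys, but Ltb alone passed the test over all genes. Ltb rose 1.96-fold and was the 1 member called higher, or 2.44% of the 41, while 1.17% of all genes were called higher, 0.890% lower and 2.06% in either direction. A single call in 41 is too few to set the family's share of calls apart from that background. No member was called lower in edgeR's test, where 2 were lower with an unadjusted p under 0.05. The log2 fold change was above 0 for 34 of the 41 members (82.9%), against 52.3% of all genes. An unadjusted p under 0.05 was reached on the higher side by 13 members (31.7%), against 5.91% of all genes, and on the lower side by 2 members (4.88%), against 4.71% of all genes; in either direction the share over all genes was 10.6%. The median log2 fold change was 0.34 over the members, against 0.01 over all genes. Members are not replicates of each other, and in kidney tissue more cells of a type and more RNA per cell cannot be told apart.

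**Figure D1:**
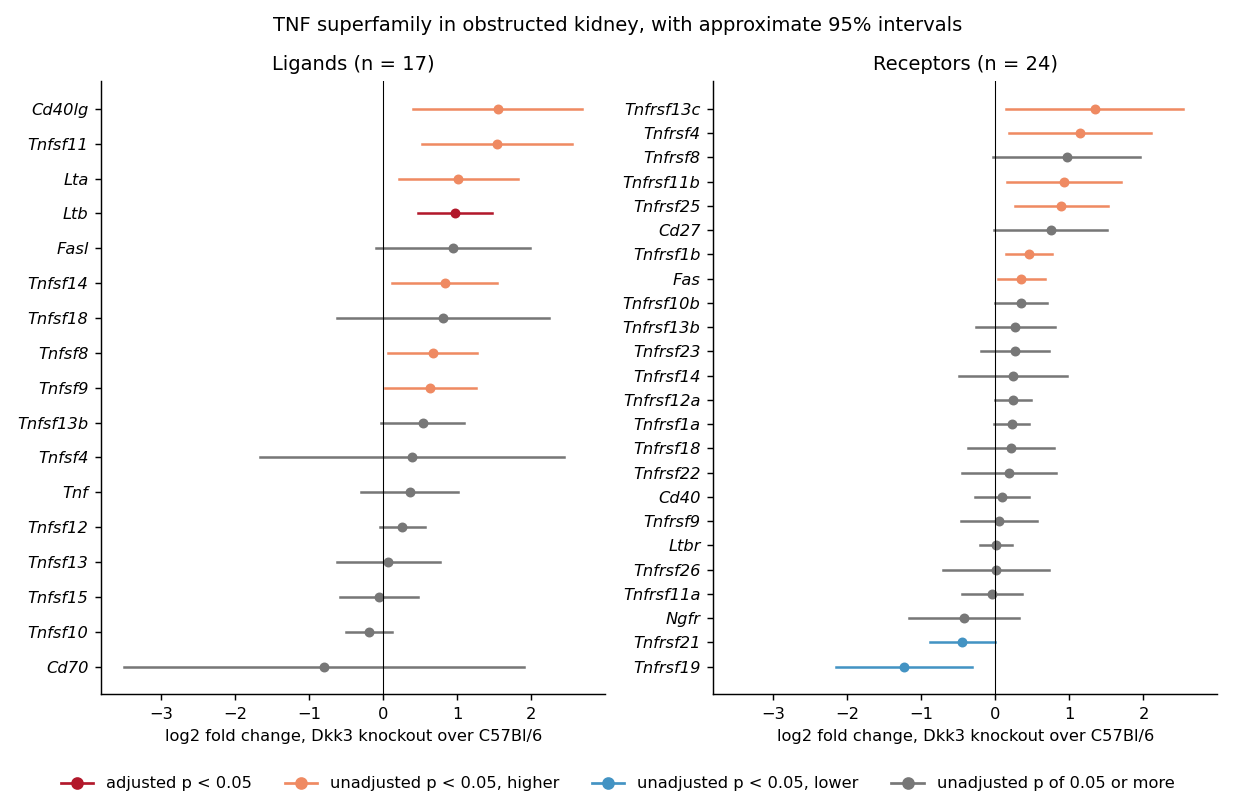
Log2 fold change, Dkk3 knockout over C57Bl/6, of the 17 ligands (left) and 24 receptors (right), each with its approximate 95% interval from 3 and 3 mice; colours give the test result of the authors' table. Ltb is the 1 member past an adjusted p of 0.05, and the widest intervals belong to Cd70 and Tnfsf4, the members with the lowest levels.

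Of the lymphotoxin genes Ltb rose, while the value of the receptor gene lay close to 0. Ltb (ENSMUSG00000024399), the membrane anchor of surface lymphotoxin and a product of lymphocytes, averaged 8.67 CPM and rose by 0.97 on the log2 scale (approximate SE 0.25, 95% interval 0.47 to 1.46, adjusted p = 0.011) in the authors' deposited table. Lta, whose product joins it in the same heterotrimer, had a log2 fold change of 1.01 (SE 0.41, adjusted p = 0.241) at an average level of 0.843 CPM in the authors' deposited table. Their receptor gene Ltbr, found on stromal, epithelial and myeloid cells, was abundant at an average of 103 CPM and had a log2 fold change of 0.01, with a 95% interval of -0.21 to 0.23, in the authors' deposited table. A change of Ltbr as large as that of Ltb thus lies outside its interval. Beside these values, 11 of 15 T cell markers (73.3%) were called higher, against 1.17% of all genes, and the median log2 fold change of the 15 was 1.45. The values of these markers ran from -0.01 to 1.87, the highest being that of the T cell receptor component Cd3e, in the authors' deposited table. Their part in the value of Ltb was not tested. The Ltb call was lost, with an adjusted p of 0.162, when an F distribution with an assumed 14 degrees of freedom replaced the chi-square of the authors.

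Tnf itself, the founding cytokine of the family and a product mainly of macrophages and T cells, was not separable from 0. Its log2 fold change was 0.36 (95% interval -0.30 to 1.02) at an average level of 3.29 CPM in the authors' deposited table, and the gene lies between Ltb and Lta. Of its receptors, Tnfrsf1b, the leukocyte and endothelial form without a death domain, had a log2 fold change of 0.46 (SE 0.16, unadjusted p = 0.00379, adjusted p = 0.113) at 41.4 CPM in the authors' deposited table. Tnfrsf1a, the widely expressed form with a death domain, had a log2 fold change of 0.22 (95% interval -0.01 to 0.45) at 157 CPM in the authors' deposited table. All 6 genes of the TNF and lymphotoxin axis stood above 0, against 52.3% of all genes, though Ltbr lay only at 0.01. At an unadjusted p under 0.05, 3 of them (50%) were higher, against 5.91% of all genes. The median log2 fold change of the 6 was 0.41.

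Costimulatory genes of T cells and antigen-presenting cells stood mostly above 0, without a call. Of the 16 members with this role, 14 (87.5%) stood above 0, against 52.3% of all genes. On the higher side 6 (37.5%) had an unadjusted p under 0.05, against 5.91% of all genes. EdgeR's test called none of the 16, which does not set them apart from the 2.06% of all genes called. Their median log2 fold change was 0.65, against 0.34 over all 41 members, which include them. Of the 16, 5 averaged under 1 CPM, where values are less certain. Cd40lg, the helper T cell signal to B cells and dendritic cells, had a log2 fold change of 1.54 (SE 0.58, adjusted p = 0.181) at an average level of 0.515 CPM in the authors' deposited table. Tnfrsf4, which encodes the OX40 receptor of activated T cells, had 1.14 (SE 0.49, adjusted p = 0.298) at 1.38 CPM in the authors' deposited table. Tnfrsf25, the death receptor DR3 of T cells, had 0.89 (SE 0.32, adjusted p = 0.144) at 1.63 CPM in the authors' deposited table. The fold was 2.92 for Cd40lg and 2.20 for Tnfrsf4, neither of them called, in the authors' deposited table.

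The ligands of antigen-presenting cells and activated lymphocytes followed at smaller values. Tnfsf14 (LIGHT) had a log2 fold change of 0.83 (SE 0.36, adjusted p = 0.312), Tnfsf8 (the CD30 ligand) 0.67 (SE 0.31, adjusted p = 0.371) and Tnfsf9 (the CD137 ligand) 0.63 (SE 0.31, adjusted p = 0.445) in the authors' deposited table. Tnfrsf8 (CD30) stood at 0.96 (adjusted p = 0.505) and Cd27, a receptor of naive and memory T cells, at 0.75 (adjusted p = 0.492) in the authors' deposited table. Tnfsf18 (0.81), Tnfsf4 (0.39) and Cd70 (-0.80) were all under 0.5 CPM, and their approximate standard errors of 0.73, 1.05 and 1.38 are close to or above the values themselves in the authors' deposited table.

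Other receptors of the same role stood near 0. The log2 fold change was 0.21 for Tnfrsf18 (GITR, 95% interval -0.37 to 0.79), 0.04 for Tnfrsf9 (CD137, -0.47 to 0.56) and 0.24 for Tnfrsf14 (HVEM, -0.49 to 0.96) in the authors' deposited table. Cd40, the receptor of B cells, macrophages and dendritic cells for Cd40lg, stood at 0.10 (95% interval -0.27 to 0.46) at an average level of 18.2 CPM in the authors' deposited table. GITR and CD137 are borne by regulatory as well as activated T cells, and Foxp3, which defines regulatory T cells, had 0.20 (SE 0.16, adjusted p = 0.757) at 13.1 CPM in the authors' deposited table. That level lies above those of all 15 T cell markers, the highest of which averaged 9.7 CPM. From which cells the Foxp3 reads come was not tested, so its value is no measure of regulatory T cells. Of 5 regulatory T cell markers 1 was called, against 2.06% of all genes. This was the checkpoint gene Ctla4 (2.68, adjusted p = 0.00888, average 0.57 CPM in the authors' deposited table), which other activated T cells express too. The general T cell markers had a median of 1.45. Whether more T cells account for the values of the costimulatory members was not tested.

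The 4 genes of the B cell survival axis all stood above 0, against 52.3% of all genes, with a wide range. Tnfrsf13c, the receptor for BAFF on mature B cells, had a log2 fold change of 1.34 (SE 0.61, adjusted p = 0.36) at an average level of 0.476 CPM in the authors' deposited table. Tnfsf13b, which encodes BAFF and is made by myeloid and stromal cells, had 0.53 (95% interval -0.03 to 1.09) at 4.86 CPM in the authors' deposited table. Tnfrsf13b (TACI) stood at 0.27 and Tnfsf13 (APRIL) at 0.07, with adjusted p of 0.824 and 0.994, in the authors' deposited table. Beside these, 2 of 4 plasma cell markers were called higher, against 1.17% of all genes. Among them was Igj (4.69, adjusted p = 2e-31), which encodes the joining chain of antibodies, in the authors' deposited table. Of 7 B cell markers edgeR's test called none, and 2 (28.6%) were higher with an unadjusted p under 0.05, against 5.91% of all genes. What part B lineage cells had in the values of Tnfrsf13c was not tested.

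In the RANK axis, known for osteoclast formation and also used by T cells and lymphoid stroma, the ligand and the decoy receptor stood well above 0 and the signalling receptor close to it. Tnfsf11 (RANK ligand) had a log2 fold change of 1.54, a 2.90-fold difference (SE 0.51, unadjusted p = 0.00283, adjusted p = 0.0931), at an average level of 0.501 CPM in the authors' deposited table, and was the member nearest to a call after Ltb. Tnfrsf11b, which encodes the soluble decoy osteoprotegerin, had 0.93 (SE 0.39, adjusted p = 0.29) at 1.13 CPM in the authors' deposited table. Tnfrsf11a, which encodes RANK, averaged 8.70 CPM and stood at -0.05 (95% interval -0.46 to 0.36) in the authors' deposited table. With so low a level, the value of Tnfsf11 rests on few reads.

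Of 8 death receptors and decoys none was called in edgeR's test, and their median log2 fold change was 0.20. The lack of a call does not set them apart from the 2.06% of all genes called. Tnfrsf25 (0.89) and Tnfrsf11b (0.93 in the authors' deposited table), described above with other roles, are not in this list and exceed its highest value of 0.35. Within it, an unadjusted p under 0.05 was reached by Fas on the higher side and Tnfrsf21 on the lower. Fas, which is induced by p53 among other signals, had a log2 fold change of 0.35 (SE 0.16, adjusted p = 0.378) and averaged 14.3 CPM, and Fasl, the ligand borne by cytotoxic lymphocytes, had 0.94 (SE 0.53, adjusted p = 0.568) at 0.525 CPM, in the authors' deposited table. Tnfrsf10b, the mouse TRAIL receptor and another p53 target, stood at 0.34 (95% interval -0.01 to 0.70) and Tnfsf10, its ligand TRAIL, at -0.19 (95% interval -0.50 to 0.12) in the authors' deposited table. Tnfsf10 averaged 75.0 CPM in the authors' deposited table and had the highest level per length of the 17 ligands. The mouse TRAIL decoy receptor genes Tnfrsf22 (0.18) and Tnfrsf23 (0.26), and the related Tnfrsf26 (0.01), had adjusted p of 0.946, 0.78 and 1 in the authors' deposited table.

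The TWEAK pair, known from injured tubules, held values with small standard errors. Tnfrsf12a (Fn14) averaged 156 CPM with a log2 fold change of 0.24 (95% interval -0.01 to 0.48, adjusted p = 0.494), and Tnfsf12 (TWEAK) averaged 20.2 CPM with 0.26 (95% interval -0.05 to 0.56, adjusted p = 0.609), in the authors' deposited table. Both intervals end below a doubling, which is 1 on this scale. The value of Tnfsf12 is uncertain, since 46.8% of its 50 nt stretches also occur in another gene, mostly in Tnfsfm13, a transcript that joins it to Tnfsf13.

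The 3 receptors grouped as ectodysplasin-like and others, a list chosen with earlier results known, stood below 0. Tnfrsf21 and Ngfr are counted among the death receptors and decoys too. Outside the list, the ectodysplasin receptor genes Eda2r and Edar had 1.67 and -1.04 in the authors' deposited table. The family receptor genes Relt and Tnfrsf26 had 0.62 and 0.01 there, so no direction is shown for a class of receptors. Tnfrsf19 (TROY), an orphan receptor of epithelial progenitors and the nervous system, had a log2 fold change of -1.23, a 2.35-fold difference (SE 0.47, unadjusted p = 0.00855, adjusted p = 0.185), at an average level of 0.728 CPM in the authors' deposited table. Tnfrsf21 (DR6), a death domain receptor, averaged 269 CPM and had -0.44 (SE 0.22, unadjusted p = 0.0452, adjusted p = 0.445) in the authors' deposited table. Ngfr, the p75 neurotrophin receptor of nerves and some mesenchymal cells, had -0.42 (SE 0.38, adjusted p = 0.782) in the authors' deposited table. None of the 3 passed over all genes. Most tubular epithelial markers lay on the same side: 7 of 8 proximal tubule, 4 of 6 loop and distal tubule and 8 of 8 collecting duct markers. The median log2 fold changes of these lists were -0.41, -0.35 and -0.72, and 0, 1 and 5 of the markers were called lower, against 0.890% of all genes. Their part in the values of these receptors was not tested.

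Set side by side, ligands and receptors of a pair often differed in their fold changes. Among 22 ligand and receptor pairs, the ligand stood above the receptor in 13, and the receptor had the higher level per length in 17. Between Cd40lg and Cd40 the log2 fold changes were 1.54 and 0.10, between Ltb and Ltbr 0.97 and 0.01, and between Tnfsf11 and Tnfrsf11a 1.54 and -0.05 in the authors' deposited table. In the opposite order stood Tnfsf15 and its receptor gene Tnfrsf25, at -0.05 and 0.89, and Tnfsf4 and its receptor gene Tnfrsf4, at 0.39 and 1.14, in the authors' deposited table. The differences within pairs were not tested, since the table gives no covariance between genes.

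**Figure D2:**
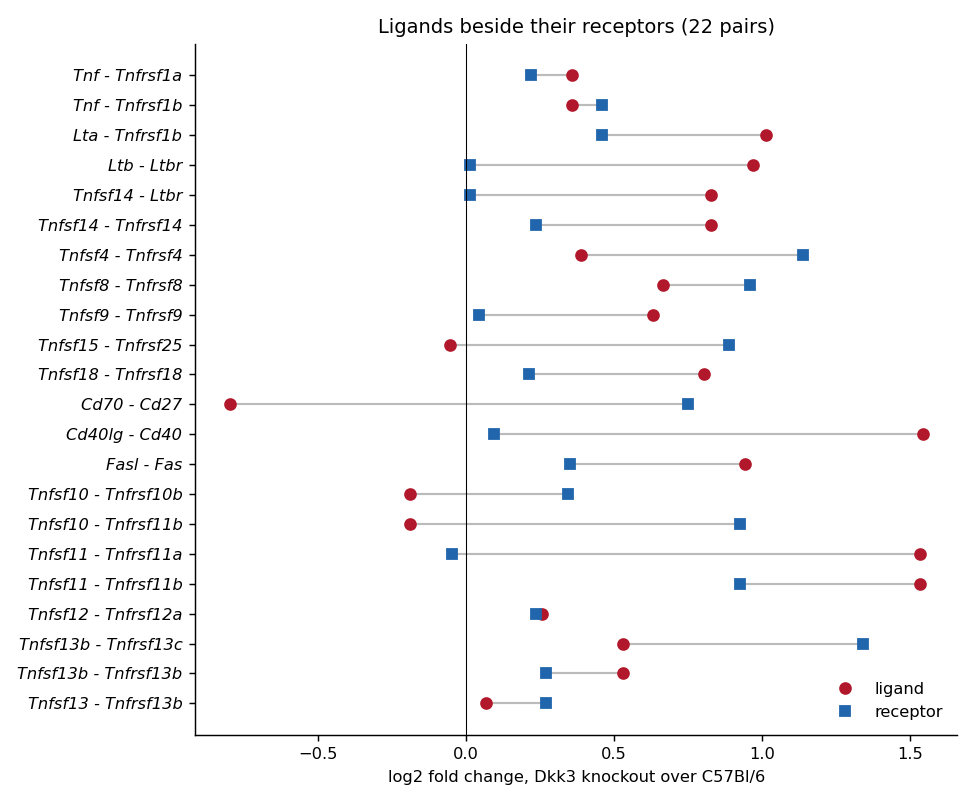
Log2 fold change, Dkk3 knockout over C57Bl/6, of the ligand (circle) and receptor (square) of each of 22 pairs; some genes occur in several pairs. The widest gap among pairs in which both stand at 0 or above is that of Cd40lg (1.54) and Cd40 (0.10).

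Per length, the highest levels were those of receptors. On the scale of average CPM per kilobase of annotated exon, the highest receptors were Tnfrsf12a at 80.7, Tnfrsf21 at 65.4, Tnfrsf1a at 60.5 and Ltbr at 43.7, followed by Tnfrsf1b at 10.8, computed from the authors' deposited table. The highest ligands on that scale were Tnfsf10 at 14.2, Tnfsf12 at 13.3 and Ltb at 5.72, and the lowest was Tnfsf4 at 0.099, computed from the authors' deposited table. The members at 1 CPM or more numbered 31, with a median log2 fold change of 0.26, and 26 of them stood above 0. For the 10 members under 1 CPM the median was 0.95, and 8 stood above 0. The approximate standard error had a median of 0.27 for the members at 1 CPM or more and 0.56 for those under it, so the large folds of the second set are the less certain ones.

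**Figure D3:**
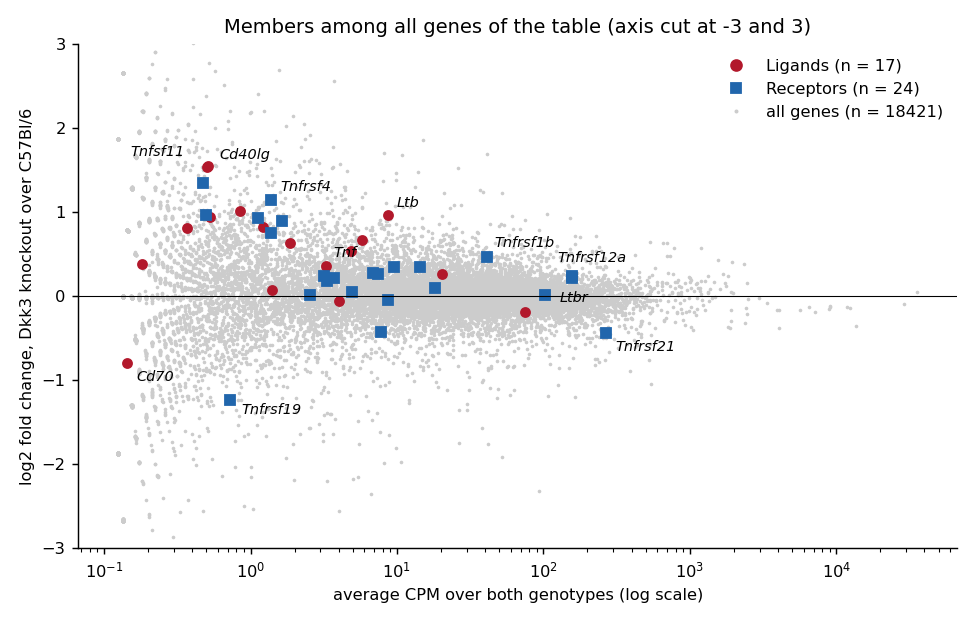
Log2 fold change, Dkk3 knockout over C57Bl/6, against average CPM on a log axis for the ligands (circles), the receptors (squares) and all 18421 genes (grey); values beyond -3 and 3 are not drawn. The members above 100 CPM lie within 0.5 of 0, while the largest positive values belong to Cd40lg and Tnfsf11 near 0.5 CPM.

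With gaps under 1 Mb, 23 members formed 9 clusters in GENCODE vM21 (GRCm38). On chromosome 17, Ltb lay at 35194439 to 35196320, Tnf at 35199381 to 35202007 and Lta at 35203165 to 35205351, with log2 fold changes of 0.97, 0.36 and 1.01 in the authors' deposited table. On chromosome 6, Cd27 (125232622 to 125237010), Ltbr (125306571 to 125313885) and Tnfrsf1a (125349362 to 125362484) had 0.75, 0.01 and 0.22 in the authors' deposited table. On chromosome 4, Tnfrsf4 and Tnfrsf18, 9.55 kb apart, had 1.14 and 0.21 in the authors' deposited table. The 3 members on chromosome 7, which carries the deleted gene, were Tnfrsf22, Tnfrsf23 and Tnfrsf26, the nearest 31.4 Mb from Dkk3, with 0.18, 0.26 and 0.01 in the authors' deposited table. The family receptor gene Relt, which the naming rule does not reach, lies nearer to Dkk3 on that chromosome. Relt lay at 100845847 to 100863446 and Dkk3 at 112116017 to 112159057. On chromosome 11, Tnfsf13 and Tnfsf12 had 0.07 and 0.26 in the authors' deposited table. Differences between neighbours were not tested.

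Some members may share reads with other genes. Their annotated transcripts were cut into every distinct stretch of the read length, 50 nt, and for 10 members more than 1% of these also occurred in another gene. The share was 27.4% for Tnfrsf22 and 19.3% for Tnfrsf23, mostly with each other, so their values are uncertain. For Tnfsf13 the share was 57.3%, which with that of Tnfsf12 leaves both values uncertain, since Tnfsfm13 lies on the same strand. Tnfrsf18 shared 18.7% with Gm16008, an antisense gene, and Tnfsf9 11.5% with Gm11110 on the opposite strand. Whether strand was used in counting is not given in the sources used here, so the values of Tnfrsf18 and Tnfsf9 are uncertain too. Ltb, Lta and Tnf shared no such stretch.

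A family gene that the naming rule does not reach differed more than any member. Eda2r, which encodes the receptor of ectodysplasin A2 and is induced by p53, rose by 1.67 on the log2 scale, or 3.19-fold (SE 0.23, adjusted p = 7.52e-11), at an average level of 10.9 CPM in the authors' deposited table. Edar, the receptor of ectodysplasin A1, had -1.04 (SE 0.38, adjusted p = 0.151), Relt had 0.62 (SE 0.25, adjusted p = 0.246) and the ligand gene Eda had -0.22 (adjusted p = 0.867) in the authors' deposited table. Of 10 p53-induced genes, a list that includes Eda2r and was chosen with earlier results known, 5 (50%) were called higher and none lower. Over all genes 1.17% were called higher and 0.890% lower. All 10 stood above 0, with a median log2 fold change of 0.42. Besides Eda2r, the called genes were the cell cycle inhibitor gene Cdkn1a (0.80), Phlda3 (0.69), the nuclease gene Aen (0.62) and the stress protein gene Sesn2 (0.39) in the authors' deposited table. The p53-induced members Fas (0.35) and Tnfrsf10b (0.34) did not pass in the authors' deposited table. They lay below the 5 called genes but within the range of the 10, which ran from 0.13 to 1.67. Under the F distribution with assumed degrees of freedom 2 of the 5, Cdkn1a and Eda2r, were called.

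Signalling genes downstream of the receptors showed no call. Outside the members, the pathway lists held 93 genes, of which 5 were called, all of them from the list of 10 p53-induced genes. Without that whole list 83 genes were left, and edgeR's test called none of them. As 2.06% of all genes were called, this does not set the 83 apart from all genes. At an unadjusted p under 0.05, 8 were higher (9.64%) and 3 lower (3.61%), against 5.91% and 4.71% of all genes. The 8 genes of the TRAF adaptor list, Tank included, had log2 fold changes between 0.03 and 0.32, with a median of 0.07. The 12 death signalling genes, among them Tradd, Fadd, Ripk1 and Casp8, had a median of 0.07, with none at an unadjusted p under 0.05. In the canonical NF-kB list the smallest p were those of Nfkb1 (0.31, adjusted p = 0.307), which encodes the precursor of p50, and Rel (0.66, adjusted p = 0.356), a lymphocyte subunit, in the authors' deposited table; the median of its 20 genes was 0.08. In the non-canonical list the kinase gene Map3k14 (NIK), which Ltbr activates, had 0.30 (adjusted p = 0.413), and Birc3 had 0.26 (adjusted p = 0.483), in the authors' deposited table, with a median of 0.14 for the 7 genes.

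Target genes held no call either. Of 24 TNF and NF-kB target genes none was called in edgeR's test, which does not set them apart from the 2.06% of all genes. At an unadjusted p under 0.05 there were 1 higher (Junb, 0.35) and 1 lower (Tnfaip8, -0.31) in the authors' deposited table. The median log2 fold change of the 24 was 0.11, and 19 of them (79.2%) stood above 0, against 52.3% of all genes. Among 4 measured lymphoid organiser genes, which lymphotoxin is known to induce in stroma, Cxcl13 had a log2 fold change of 2.38 (SE 0.98, adjusted p = 0.258) at 0.494 CPM and Ccl19 had 0.95 (adjusted p = 0.695) at 0.436 CPM in the authors' deposited table. Ccl21a (0.41) and Madcam1 (0.00) had adjusted p of 0.764 and 1 in the authors' deposited table. Of the shedding genes, Rhbdf2, a partner of the TNF-releasing protease in immune cells, had 0.40 (SE 0.13, adjusted p = 0.0918), and the protease gene Adam17 itself had 0.05 (95% interval -0.17 to 0.26), in the authors' deposited table. Btla, whose product binds HVEM on lymphocytes, had 0.68 (adjusted p = 0.269) and Sort1, a partner of p75, had -0.28 (adjusted p = 0.237) in the authors' deposited table.

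**Figure D4:**
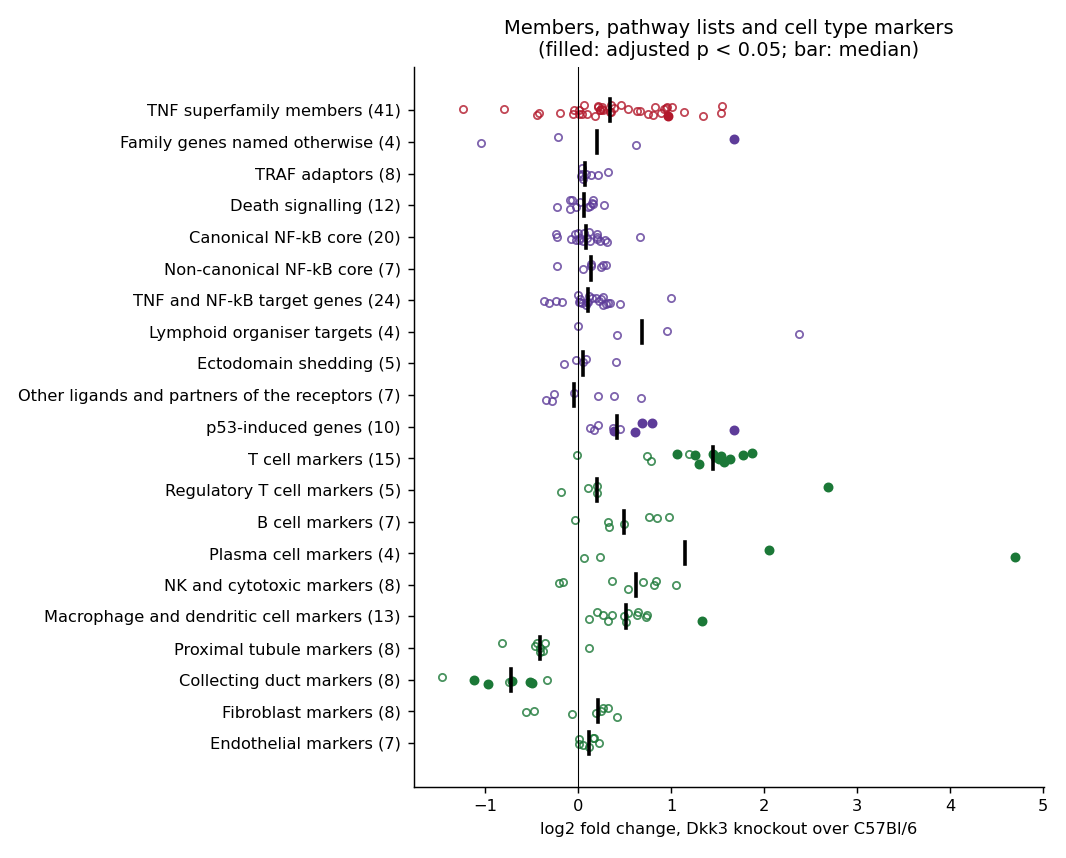
Log2 fold change, Dkk3 knockout over C57Bl/6, of each gene (points, filled at an adjusted p under 0.05) and median (bar) for the 41 members (top), the pathway lists and cell type markers; numbers of genes stand in brackets. The members (median 0.34) lie above the NF-kB lists (medians 0.08 and 0.14) and the target genes (0.11), and below the T cell markers (1.45).

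Cell type markers gave the setting of these values. Besides the T cell markers, macrophage and dendritic cell markers had 1 of 13 called higher, 13 of 13 above 0 and 8 of 13 higher at an unadjusted p under 0.05 (median 0.52). Natural killer and cytotoxic markers had none of 8 called by edgeR, where 2 were higher at an unadjusted p under 0.05 (median 0.62). Over all genes 1.17% were called higher, 5.91% were higher at an unadjusted p under 0.05 and 52.3% stood above 0. Lists without a call are not set apart from all genes by that count. The macrophage and dendritic call was Ccr7 (1.33, adjusted p = 0.00639 in the authors' deposited table), a receptor that T cells express too. Endothelial markers (7 genes, median 0.12) and fibroblast markers (8 genes, median 0.22) held no call by edgeR, and of these 15 genes 1 had an unadjusted p under 0.05, the fibroblast marker Lum, which was lower (-0.56 in the authors' deposited table). No list was at 0 throughout, and their level in single mice is unknown.

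The authors' over-representation sheet of 9062 Gene Ontology terms held 36 terms named for TNF, NF-kB, CD40 or death domain receptors, none of them past an adjusted p of 0.05 in either direction. The lowest p on the higher side was that of regulation of TNF production, with 5 of 79 genes higher and 1 lower (adjusted p = 0.112) in the authors' deposited table of terms, and 4 of the 36 terms had an unadjusted p under 0.05 there. The TNF-mediated signalling term had 0 of 30 genes higher and 1 lower in that deposited table. Of the members, Cd27 and Lta stand in the authors' sheet of 20 Th1-related genes, and none stands in their Th2 or Wnt sheets.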

How the data were processed

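RNA of renal tissue taken after UUO (1 µg a sample) was sequenced as single reads of 50 nt in pools of 10 on 3 lanes, per the labels. The authors worked on mm10 with edgeR (no version given), per the submitters' processing notes. Which aligner and counting tool were used, whether counting used strand, and how low genes were removed is not given in the sources used here. Per the file headers, the authors deposited for 18421 genes the log2 fold change, the log2 CPM averaged over libraries, the score of the likelihood-ratio test, its p-value and its FDR; no value per sample was used here. For all 18421 genes the deposited p-value followed from the score by the chi-square law of 1 degree of freedom (relative tolerance 0.0001), and the FDR from the p-values by Benjamini-Hochberg adjustment. The depth of the libraries is unknown.

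Called means an FDR (adjusted p) under 0.05 in the authors' edgeR table. The standard error was approximated as the size of the log2 fold change over the square root of the score, and 95% intervals as normal intervals from it; for scarce genes both are rough. Average CPM was 2 to the power of the deposited log2 CPM. Positions and exon lengths came from GENCODE vM21 (GRCm38, the assembly of mm10) by Ensembl identifier, for all 41 members; promoters came from RefSeq for 31 of them. The value of 1 marker gene is not reported here, and the counts of its list include it. Where a symbol occurred in several rows, the row whose identifier bears that name in GENCODE was used. No adjustment was made over the members or lists alone, and no list was tested. The members and the gene lists were chosen with earlier results of these data known. Members past an adjusted p of 0.05, those with an unadjusted p under 0.05 and up to 4 of each role by smallest p were to be named, with up to 3 of each pathway list and ligands beside receptors. The recomputed adjustments were tested on simulated scores. The alternatives were thresholds of 0.1 and 0.01, a 1.5-fold minimum, genes at 1 CPM or more, leaving out chromosome 7, dividing the score by its inflation factor of 1.09, the F law in place of chi-square (14 degrees of freedom, of which 4 are residual and 10 an assumed prior) and centring on the median. Python 3.11.15, pandas 2.3.3, numpy 2.4.6, scipy 1.17.1 and matplotlib 3.10.9 were used.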

Additional observations from a re-analysis of the deposited data

How the results depend on the processing

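At a threshold of 0.1 the members called higher were 2, Ltb and Tnfsf11, and with a threshold of 0.01 or with the F distribution they were 0. Under the other 5 alternatives Ltb was the 1 member called, and its adjusted p ranged between 0.00957 and 0.0213 where the adjustment was recomputed, against 0.162 with the F distribution, which depends on its assumed degrees of freedom. No member was called lower under any alternative run, as under the authors' edgeR test, where 2 were lower with an unadjusted p under 0.05. Called pathway genes numbered 5, against 8 at a threshold of 0.1 and 2 (Cdkn1a and Eda2r) with the F distribution. The median member log2 fold change was 0.34, and 0.26, 0.33 and 0.35 at 1 CPM or more, after centring and without chromosome 7. Leaving out single mice was not run, and the spread of single mice was not measured, since no values per sample were used. No paired analysis was possible because the table holds 1 result per gene over all 6 samples.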
